A study of Mus musculus with 82 samples.

Results

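Apcs encodes serum amyloid P component, a plasma protein of the pentraxin family that hepatocytes make and secrete. The protein binds amyloid fibrils of every kind, as well as DNA and chromatin, and it is the main acute-phase pentraxin of the mouse, a place that C-reactive protein takes in humans. In mouse liver its transcription is raised by interleukin-6 and interleukin-1 during inflammation. Its serum level differs widely among healthy inbred mice, low in B6 and high in D2, and its hamster counterpart was named female protein for its sex difference.

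The gene was taken as the probe whose platform symbol is Apcs. It is 1 probe and 1 gene of the 3439 named genes among 21915 features (21936 probes) of the array. It was chosen by its measured values, since its strain differences and its difference between the sexes were known from an earlier look at the same data. Its strain differences and its sex difference are therefore given as a description with no test. Its ratio between the parental strains was not among the values that chose it.

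The study measured adult liver RNA of BXD recombinant inbred strains, inbred lines that each carry a mosaic of the genomes of 2 parental strains, C57BL6/J (B6) and DBA2/J (D2). Livers of 17 BXD strains gave 40 arrays of females and 32 arrays of males, each hybridised on a 2-colour array against an RNA mix of day 17.5 B6 embryos. Male B6 liver was set against the same embryo mix on 2 arrays. A further 6 arrays compared B6 liver with D2 liver directly, and 2 arrays compared RNA labelled as enriched B6 with enriched D2, an enrichment that the labels do not explain. The series description states an age of 10 to 20 weeks and 3 unfasted mice per strain, and it speaks of males and of 18 BXD strains, whereas the array labels hold both sexes and 17 BXD strains. The labels name no treatment, and they leave unsaid whether mice were pooled for an array. Where replicate numbers do not stand for separate mice, the p-values below measure only the spread between these samples, which may be technical.

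Each value is a log ratio of liver over embryo mix, or of B6 over D2. The deposited numbers were read as log10 ratios and are given here as log2, and their base and direction were inferred from the data. Read this way, the median of 9 measured adult hepatocyte genes lay above the median of 12 measured embryonic genes on 74 of 74 arrays against the embryo mix (lowest hepatocyte median 2.90, highest embryonic median -1.62). The labels therefore fitted adult liver. On the directly compared B6 and D2 arrays the ratios of all features in the 2 channel orientations correlated at only -0.02 (male) and 0.13 (female), so direction there rests on the same channel reading, which is likely and not stated. One array of BXD11 females has a title and channel labels that disagree on the dye swap. It was used by its channel labels, and it correlated at 0.835 or higher with the other arrays of BXD11 females. The number of arrays, most often 1 per orientation for a strain and sex, limits the precision of every value below.

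The 250 bases before the RefSeq start of Apcs are shown because transcription of the gene starts there and the results turn on its transcript level. They lie at chr1:172895055-172895304 on the minus strand of GRCm38.p6, which is a B6 sequence. The D2 allele was not used here. Capitals mark a match to the motif TTCNNNGAA, the letters bound by STAT factors, which carry the interleukin-6 signal.
Apcs upstream region: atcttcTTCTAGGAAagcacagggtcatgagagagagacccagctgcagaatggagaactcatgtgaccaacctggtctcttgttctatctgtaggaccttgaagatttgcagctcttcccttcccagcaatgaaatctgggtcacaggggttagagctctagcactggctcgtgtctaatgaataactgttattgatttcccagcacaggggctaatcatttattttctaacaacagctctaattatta
The match begins at position -244 relative to the start of the gene. Of 32851 mouse promoters in windows from 250 bases before to 50 after the start, 8.3% hold this motif on either strand. No match in the same window was found for the TATA box TATAAA (in 13.6% of promoters), the C/EBP letters TTNNGNAA (40.7%) or the HNF1 letters GTTAAT (7.1%), searched on both strands. A match is a description of letters, and no binding was measured.

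Apcs was higher in adult liver than in the embryo mix in all 17 BXD strains and in B6. Over the 13 strains with both channel orientations in both sexes, its log2 ratio was 2.86 ± 0.99 (SD, n = 13 strains), or 7.24-fold (limma, adjusted p = 2.03e-08). This was the 64th highest ratio among the 3439 named genes. In this comparison 4.69% of all features were called higher in liver, at an adjusted p under 0.05 and a log2 ratio of at least 1. Since the embryo mix was a single reference, the test leaves out its spread. It was also run on the strain values that chose the gene, though on their mean and not on their differences. In these whole-tissue samples more cells of a type and more RNA per cell cannot be told apart. The 2 arrays of male B6 liver read 1.62 and 1.66, below the mean of 2.63 over BXD males, and 2 of the 17 male strain values lay below B6.

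The level of Apcs varied more between strains than that of nearly any other gene, a pattern for which it was chosen. Strain means over both sexes ran from 1.31 in BXD6 to 4.84 in BXD28, a span of 3.52 on the log2 scale or 11.5-fold. The SD across the 13 strains was the seventh highest of all 21915 features and the third highest of the named genes. By comparison, arrays of the same strain and sex differed with an SD of 0.23 (26 groups), and separate replicate numbers of a strain and sex with an SD of 0.19 (5 groups). For the strain comparison as a whole, a moderated F test called 1.2% of features.

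**Figure D1:**
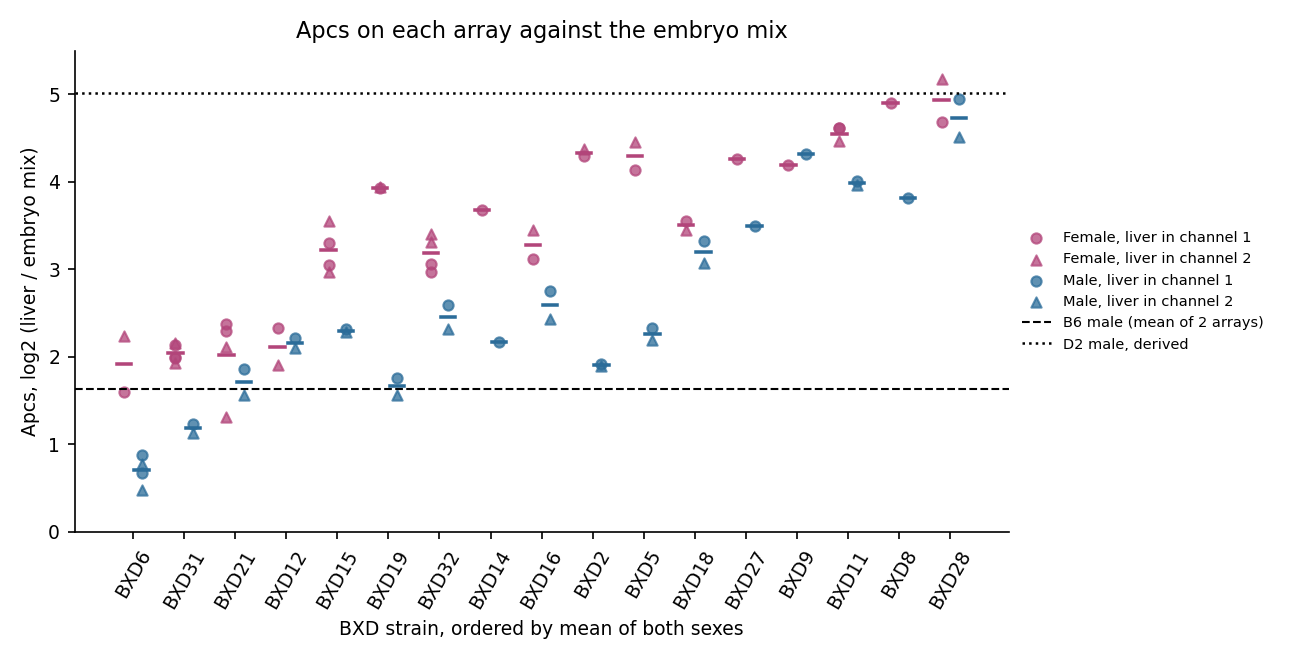
Apcs on each array against the embryo mix (vertical axis, log2 of liver over embryo mix) for 17 BXD strains ordered by the mean of both sexes (horizontal axis), with females left of males, circles for liver in channel 1, triangles for liver in channel 2 and bars for the mean of a strain and sex. The dashed line is B6 male liver at 1.64 and the dotted line the derived D2 male level at 5.02, and strain means climb from 1.31 in BXD6 to 4.84 in BXD28.

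BXD6 males gave the lowest arrays of the series, at 0.68, 0.48, 0.87 and 0.78, and BXD6 females read 1.60 and 2.24. BXD31 was next, with 1.94 to 2.16 on 5 arrays of females and 1.24 and 1.13 in males. Both strains were thus low in both sexes, and in both the females lay above the males with no overlap.

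BXD21 females read 2.30, 2.12, 2.38 and 1.31, and BXD21 males 1.86 and 1.57. The array at 1.31 stood apart from the other 3 of its group and lay below both male arrays. BXD12 females read 2.33 and 1.91 and BXD12 males 2.21 and 2.11, so the sexes overlapped in both of these strains.

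At the other end, BXD28 females read 4.69 and 5.18 and BXD28 males 4.95 and 4.52. BXD11 females read 4.62, 4.62 and 4.47, above BXD11 males at 4.01 and 3.96. BXD8 had 1 array of each sex, with 4.90 in the female array and 3.82 in the male array. In BXD9 the female array read 4.19 and the male array 4.32. Males of these 4 strains were the 4 highest of the 17. The highest array value, 5.18, lay below the bound at which deposited values were capped.

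The widest differences between the sexes were in BXD2, BXD19 and BXD5. BXD2 females read 4.30 and 4.37, against 1.92 and 1.89 in BXD2 males. BXD19 females read 3.93 and 3.94, against 1.76 and 1.57 in BXD19 males. BXD5 females read 4.14 and 4.46, against 2.33 and 2.19 in BXD5 males. In each of these strains every female array lay above every male array. BXD19 and BXD2 males ranked 3 and 5 from the lowest of 17, and BXD5 males 8, just below the male median of 2.30.

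In the remaining strains, female and male means were 3.67 and 2.17 in BXD14, 3.22 and 2.30 in BXD15, and 3.28 and 2.60 in BXD16. They were 3.19 and 2.46 in BXD32, 3.51 and 3.20 in BXD18, and 4.26 and 3.50 in BXD27. Swapping the channels moved Apcs by 0.05 on average (liver in channel 1 minus channel 2, 26 pairs), with a range of -0.65 to 0.62.

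Apcs was higher in females than in males. The mean over the 17 strains was 3.55 in females and 2.63 in males. The difference was 0.92 ± 0.76 (SD, n = 17 strains), or 1.90-fold, and females were higher in 15 of 17 strains. This was the 14th largest excess in females among the named genes, for a gene chosen with this difference known. In that comparison 16.5% of all features were called higher in females and 33.7% were called in either direction (limma, strain as a block). With every array scaled to equal spread the difference was 1.47, and the mean difference of the 9 hepatocyte genes was then 0.58, against 0.02 as deposited. The size of the sex difference thus depends on the scale given to the arrays, and its direction does not.

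The size of the sex difference varied widely between strains. It was 2.43 in BXD2 (5.40-fold), 2.27 in BXD19, 2.04 in BXD5 and 1.50 in BXD14. It was 0.20 in BXD28, -0.04 in BXD12 and -0.13 in BXD9. Runs, stretches of arrays deposited one after another, held the 2 sexes of most strains apart. This was so in BXD2, BXD19 and BXD5, with the widest differences, and also in BXD28 and BXD12, with small ones. Within these strains sex and run cannot be told apart. In the run that held BXD8, BXD9 and BXD14 in both sexes, females exceeded males by 0.82, and in the run with BXD27 by 0.77. In a fit on 40 values that kept replicate numbers of a strain and sex apart, the difference was 0.88 with the run as a term and 0.91 without it.

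**Figure D2:**
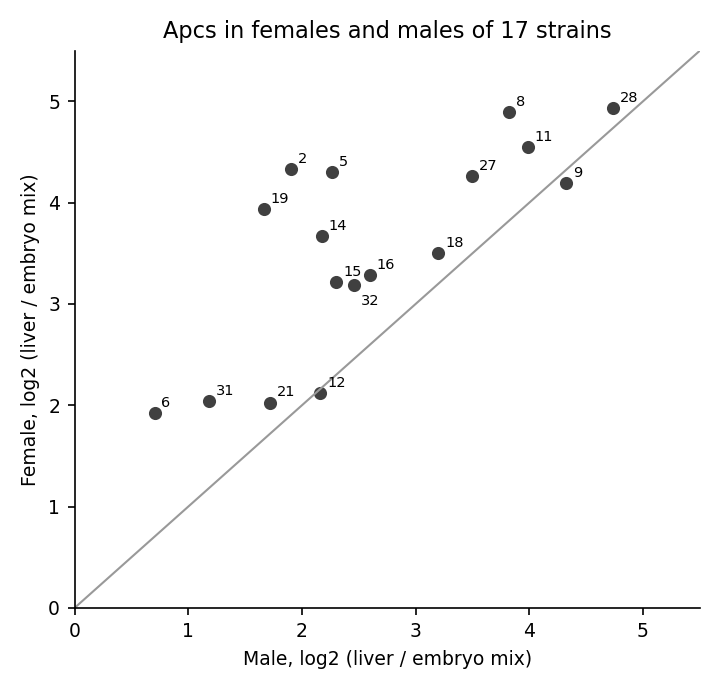
Female level (vertical axis) against male level (horizontal axis) of Apcs, both as log2 of liver over embryo mix, with 1 point per BXD strain labelled by its number and a line of equality. Females lie above the line in 15 of 17 strains, and BXD2, BXD19 and BXD5 lie farthest from it, at 2.43, 2.27 and 2.04.

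Male strain values were spread between the parental levels rather than gathered in 2 groups at them, and female values broke into a low and a high set of unequal size. One allele of B6 or D2 acting alone would put each strain near a parental level. The B6 level is known in males, at 1.64, and subtracting the mean male ratio of the direct arrays from it gives a derived D2 level of 5.02. This derived level combines 2 kinds of array and carries the error of both, which was not estimated. Of the 17 male values, 3 lay within 0.37 of B6 and 1 within 0.37 of D2, where 0.37 is 2 SD between replicate numbers (5 groups). A further 11 lay between the parents, 2 lay below B6 and none above D2. That band holds only a spread that may be technical and comes mostly from females, and it leaves out the error of both parental levels. A value outside it therefore does not show that a strain carries neither parental allele. These counts also rest on the likely direction of the direct arrays: with their sign turned, D2 would lie at -1.74, 15 males would lie above B6 and 2 between the parents.

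Sorted by level, males formed no gap as wide as the widest one in females. BXD19 to BXD16, 9 strains, lay within 1.66 to 2.60, and 6 strains were spread above them from 3.20 to 4.74. The largest male gap was 0.60, between BXD16 and BXD18, which was 14.9% of the male span of 4.03 and left 11 strains below and 6 above. Of the 16 gaps between neighbouring males 12 were under 0.37. Among the 13 strains with both orientations the largest male gaps were 0.79, between BXD18 and BXD11, and 0.75, between BXD11 and BXD28.

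A wide gap split the females. It measured 1.07, between BXD12 at 2.12 and BXD32 at 3.19, which was 35.5% of the female span of 3.01. It left 4 strains below (BXD6, BXD21, BXD31 and BXD12), within 1.92 to 2.12, and 13 strains above, spread from 3.19 to 4.93. All of the other 15 gaps were under 0.37. The females thus held 1 tight low set and 1 wide high set, in shares of 4 and 13. No female liver of B6 was set against the embryo mix, so parental levels in females cannot be placed on this axis.

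Those 4 strains did not stand apart as males. Their males ranked 1, 2, 4 and 6 from the lowest, and BXD19 and BXD2 males lay among them. Averaged over both sexes, the 17 strain means had their largest gap, 0.62, between the same 4 strains and the rest (17.6% of the span), and the next, 0.53, between BXD18 and BXD27. Among the 13 strains with both orientations the largest gap was instead 0.91, between BXD18 and BXD11, so where the series breaks depended on the strains used. Female and male values correlated at r = 0.751 over 17 strains (Spearman rho 0.676) and at r = 0.716 over 13 strains (rho 0.648). These share the embryo mix and are given as a description.

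**Figure D3:**
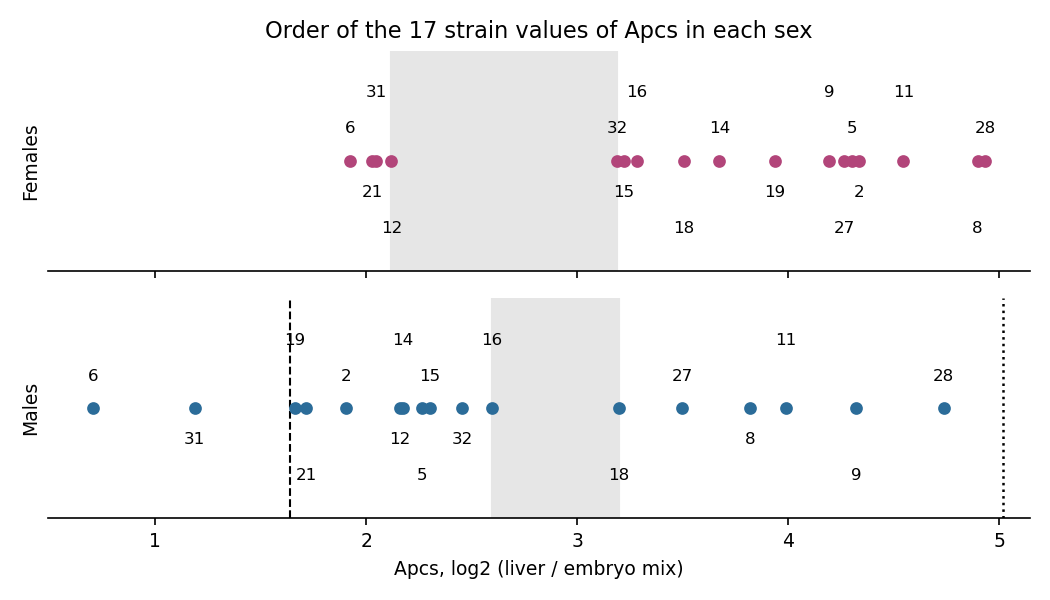
The 17 female values (upper row) and the 17 male values (lower row) of Apcs along 1 axis, log2 of liver over embryo mix, with BXD numbers beside the points and the largest gap of each sex shaded. The dashed line is B6 male liver (1.64) and the dotted line the derived D2 male level (5.02). The female gap of 1.07 parts 4 strains from 13, while the largest male gap is 0.60.

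The parental strains differed strongly. On the plain arrays of B6 against D2 liver, the log2 ratio of B6 over D2 in females was -2.70 and -3.04 for replicate 1 in its 2 orientations and -2.92 for replicate 2. In males it was -3.40 and -3.58 for replicate 1 and -3.27 for replicate 2. All 6 arrays put B6 below D2, in both orientations and both sexes.

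Over 4 values, 1 per sex and replicate number, the ratio was -3.14 ± 0.30 (SD, n = 4), which is 8.80-fold lower in B6 than in D2 (limma, adjusted p = 0.00548). This was the third largest ratio in size of all 21915 features. With the likely direction it was the lowest, and with the sign of every direct array turned it would be the highest, at 3.14. Of all features 0.0867% were called lower in B6 and 0.178% were called in either direction, 39 in number, of which 13 were named. The call was lost with trended and robust limma settings (adjusted p = 0.442), with arrays scaled to equal spread (0.0534), and without male replicate 1 (0.0545) or male replicate 2 (0.134), while the ratio stayed between -3.23 and -3.02 in these 4 fits and in those without a female value. A call here thus rests on few values, and the size of the ratio does not depend on any 1 of them.

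The ratio averaged -2.89 ± 0.03 in females and -3.38 ± 0.16 in males (SD, n = 2 each), so it was smaller in size in females by 0.49. This sex term did not pass the test (limma, adjusted p = 0.631, unadjusted p = 0.0296). The test called 0% of features, and 1673 had an unadjusted p under 0.05.

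On the enriched arrays the ratio of B6 over D2 was -2.04 in females (4.11-fold lower in B6) and -1.94 in males (3.84-fold lower in B6). Both had B6 in channel 2 and both were smaller in size than each of the 6 plain arrays. With 1 array per sex this difference has no test. The SD of log ratios over all features was 0.33 on the female and 0.40 on the male enriched array, against 0.28 to 0.64 on the plain arrays. On plain arrays with B6 in channel 2 it was 0.38 and 0.64 in females and 0.30 and 0.44 in males. The female enriched array was thus narrower than both of its plain counterparts, and the male one lay between its own. Whether this spread bears on the smaller ratio was not tested.

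**Figure D4:**
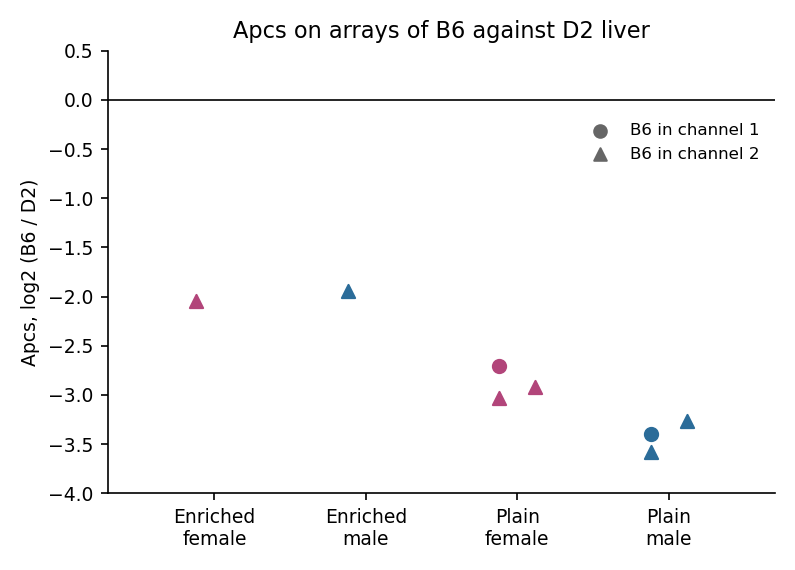
Apcs on arrays of B6 against D2 liver (vertical axis, log2 of B6 over D2) for enriched and plain RNA of each sex (horizontal axis), with 1 point per array, circles for B6 in channel 1, triangles for B6 in channel 2, and replicate 2 drawn right of replicate 1. The 2 enriched arrays lie at -2.04 and -1.94, and the 6 plain arrays between -3.58 and -2.70.

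Among relatives of Apcs, the pentraxin family had 3 other measured members. Ptx3, the long pentraxin made by macrophages and stromal cells, was lower in liver at -3.69 ± 0.42 (limma, adjusted p = 1.55e-14). Of all 21915 features 2010 were called lower in liver. The neuronal pentraxins Nptx1 and Nptx2 read -0.17 and -0.20 and were not called. None of the 3 was called between sexes, strains or parents, where 33.7%, 1.2% and 0.178% of all features were called. For strains and parents a count of 0 in a short list, here and below, is near that background.

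Of the 11 measured acute-phase plasma proteins 9 were called higher in liver, against 4.69% of all features, with a median of 2.26 for the list and 0.07 for all features. Highest were the lectins Mbl2 (4.63) and Mbl1 (4.07), which start the lectin pathway of complement, the fibrinogen-like Fgl1 (4.09) and the acid glycoprotein Orm1 (3.94). Saa4 (0.52) and the fetuin Ahsg (0.16) were under the size threshold.

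Between the sexes, where 16.5% of all features were called higher in females, 3 of the 11 were called higher in females (limma) and none lower. Fgl1 was higher by 0.68 in 17 of 17 strains (adjusted p = 5.85e-04), the copper carrier ceruloplasmin, Cp, by 0.36 in 14 (0.00113), and Mbl2 by 0.36 in 15 (6.46e-04). Each of these differences was smaller than that of Apcs, which was chosen with its sex difference known. With arrays scaled to equal spread Mbl1 (0.71) and Orm1 (0.79) were called as well. None of the 11 was called between strains, where 1.2% of all features were called.

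No member of that list was called between B6 and D2, where 0.178% of all features were called. Their median ratio of B6 over D2 was -0.60, against 0.01 over all features. Saa3, an inducible serum amyloid A, had the lowest ratio at -1.98 (limma, adjusted p = 0.377), followed by Fgl1 at -1.45 (0.145), the protease inhibitor Serpina3n at -1.33 (0.168) and the endotoxin carrier Lbp at -1.22 (0.153). These are means over both sexes. The sex term, female minus male, was 3.65 for Saa3 (limma, adjusted p = 0.249) and -1.05 for Fgl1 (0.547). It was 1.04 for Serpina3n (0.547) and 0.67 for Lbp (0.671), and none was called. The mean of Saa3 thus describes neither sex well. On the enriched arrays Fgl1 read -0.76 in the female and 0.61 in the male array, and Saa3 -0.26 and 0.36. The sign of both thus differed between the enriched arrays, unlike that of Apcs.

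Across the 13 strain means the correlation of these proteins with Apcs ran from -0.47 for the haemoglobin carrier haptoglobin, Hp, to 0.67 for Fgl1, with Saa3 at 0.63 and Orm1 at 0.55. Without BXD28 and BXD6, the strains farthest from the median of Apcs, these were 0.32 for Fgl1, 0.16 for Saa3, 0.35 for Orm1 and -0.30 for Hp. Their median was 0.38, against -0.04 over all features, and the 5th and 95th percentiles of named genes were -0.48 and 0.51. These values share arrays and the embryo mix and are a description.

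**Figure D5:**
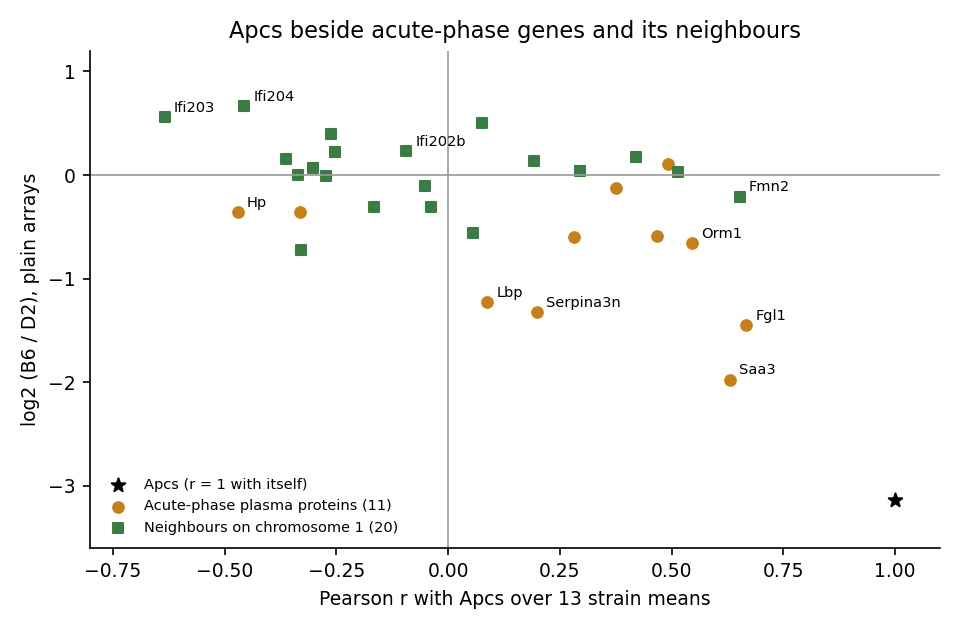
Ratio of B6 over D2 on the plain arrays (vertical axis, log2) against the Pearson correlation with Apcs over 13 strain means (horizontal axis), for Apcs, 11 acute-phase plasma proteins and 20 neighbours on chromosome 1. Apcs lies at -3.14, Saa3 at -1.98 and Fgl1 at -1.45, while the neighbours lie nearer to 0, with Ifi204 at 0.66 and Ifi203 at 0.56.

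Of 9 measured acute-phase signalling and transcription factors, the C/EBP family member Cebpb alone was called higher in liver (1.46 ± 0.48, limma, adjusted p = 1.13e-08), against 4.69% of all features. The interferon response factor Irf1 was higher in females by 0.32 (limma, adjusted p = 0.00182) and was also called between strains. Of all features 16.5% were called higher in females, 33.7% between the sexes in either direction and 1.2% between strains. Socs1, an inhibitor of cytokine signalling, was at -0.39 (female minus male, adjusted p = 1.24e-04) and was lower in females in 16 of 17 strains. None was called between the parents, where 0.178% of all features were called, and the correlation of the 9 with Apcs had a median of -0.13.

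Serum amyloid P binds the complement protein C1q and Fc receptors. All 5 measured members of a list of these partners were called higher in females (limma), against 16.5% of all features, also with scaled arrays: C1qa by 0.35, C1qb by 0.37, the complement regulator C4bp by 0.31, the Fc receptor chain Fcer1g by 0.35 and the Fc receptor Fcgr2b by 0.53. C4bp (4.73) and Fcgr2b (1.08) were called higher in liver, against 4.69% of all features. Fcer1g was called between strains, and none was called between parents, where 1.2% and 0.178% of all features were called. Their correlations with Apcs over 13 strains ran from 0.45 to 0.73, and without BXD28 and BXD6 from -0.09 for C4bp to 0.64 for C1qb.

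The macrophage list shares C1qa and C1qb with it and holds Cd5l and Marco besides. Its mean level per strain was 0.03 to 0.85 in females and -0.10 to 0.73 in males, its female excess was 0.11 over the strains, and C1qa and C1qb of its 4 members were called higher in females, against 16.5% of all features. Cd5l at -0.18 and Marco at -0.10 (female minus male) went the other way, and Cd5l was called lower with centred or scaled arrays. The mean of the macrophage list correlated with Apcs over 17 strains at 0.59 in females and 0.50 in males. Its members differed: C1qb stood at 0.54 in females and 0.59 in males, and Cd5l at 0.27 and -0.49. The 9 hepatocyte genes had mean levels of 3.52 to 4.11 in females and 3.60 to 4.05 in males, a female excess of 0.02, and correlations with Apcs of -0.17 in females and -0.26 in males. The female minus male difference of the list mean was 0.14 for 3 lymphocyte genes, 0.13 for 4 stellate cell and fibroblast genes, 0.09 for 12 embryonic genes, 0.04 for 4 endothelial genes and -0.12 for 1 bile duct gene. The part of these cell types in the level of Apcs was not tested.

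Growth hormone and sex hormone signalling shapes the difference between male and female liver. Of 8 genes of this signalling, the growth hormone receptor Ghr (1.43) and the nuclear receptor Nr1i3 (1.81) were called higher in liver, against 4.69% of all features. Socs2, a brake on growth hormone signalling, was higher in females by 0.38 (limma, adjusted p = 0.0304). The factor Stat5a, which carries the growth hormone signal, was at -0.32 (female minus male, 0.00361) and Onecut1 at -0.36 (0.0483), a call that was lost with scaled arrays. Thus 1 of the 8 was called higher and 2 lower in females, against 33.7% of all features in either direction, which is near the background. None of the 8 was called between strains or parents, where 1.2% and 0.178% of all features were called.

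Of the 4 measured amyloid proteins and carriers, the apolipoprotein Apoa2, which forms senile amyloid in mice, was higher in liver (3.38 ± 0.22), against 4.69% of all features. The cystatin Cst3 was higher in females by 0.57 in 17 of 17 strains (limma, adjusted p = 5.98e-05), against 16.5% of all features called higher in females. None was called between strains or parents, where 1.2% and 0.178% of all features were called.

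None of the 20 named genes taken as neighbours of Apcs on chromosome 1 had a ratio of B6 over D2 near that of Apcs. Most probes of the array carry no name, and any of them that lie nearer were not looked at. The 10 nearest named genes on each side run from Usp21 to Casq1 and from Ifi204 to Zbtb18, with 27 and 25 other RefSeq genes between Apcs and the nearest of them. None of these 20 was called between B6 and D2 or between strains, where 0.178% and 1.2% of all features were called, so a count of 0 is near the background. The ratio of B6 over D2 was 0.66 for the interferon-inducible Ifi204 and 0.56 for Ifi203, both opposite in sign to Apcs. Between the sexes, 3 of the 20 were called higher in females (Ifi204, Exo1 and Zbtb18) and 3 lower, among them Ly9 and Ifi202b. Over all features 16.5% were called higher in females and 33.7% in either direction, so these counts are near the background too. The calls of Exo1, Zbtb18 and Ly9 were lost with scaled arrays.

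Their correlations with Apcs over 13 strains ran from -0.63 for Ifi203 to 0.65 for the actin nucleator Fmn2, and 13 of the 20 were negative. With all 17 strains Fmn2 stood at 0.70 and Ifi204 at -0.64.

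Named genes whose strain means were most like those of Apcs, by Pearson r over 13 strains, were Ranbp1 (0.82), a partner of the nuclear transport GTPase Ran, the fatty acid binding protein Fabp5 (0.81), Cox7a2l (0.80), which joins respiratory complexes, the myeloid signalling adaptor Tyrobp (0.78), the proteasome subunit Psma7 (0.76), the leukocyte tetraspanin Cd53 (0.75) and the sodium channel Scn8a (0.73). With 17 strains these correlations were 0.28 for Scn8a to 0.67 for Ranbp1. None of the 7 was called between strains or between parents, where 1.2% and 0.178% of all features were called. Their strain SDs were 0.08 for Scn8a to 0.36 for Tyrobp, against 0.99 for Apcs. Without BXD28 and BXD6 the correlations were 0.52 for Psma7 to 0.69 for Ranbp1, and in males alone over 17 strains 0.10 for Scn8a to 0.59 for Fabp5. Most opposite were the transporter Slc43a3 (-0.86), Bckdha (-0.80), a subunit of the enzyme that breaks down branched-chain keto acids, and Odf2 (-0.80).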

How the data were processed

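Apcs and all gene lists, markers and neighbour rules were chosen with earlier results of these data known. The authors deposited 1 value per probe and array for 82 arrays, which were read as log10 ratios because 94 of them equal 2 or -2, which looks like a cap. No unit, scanner, software or normalization is given in the sources used here, and array medians near 0 (-0.002 to 0.12, log2) point to centring upstream. No value was missing and 2388 were exactly 0. Both channels carry the label cy3, per the labels, so direction was taken from the channel contents: values were multiplied to log2 and arrays with liver, or B6, in channel 1 were multiplied by -1. No signal intensity or background was used.

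Symbols came from the platform annotation (3290 probes with 1 symbol, 4 with several) and, for 170 probes, through accessions in a RefSeq gene table of GRCm38.p6, which served for names and gene order alone. A further 18476 probes stayed unnamed. Probes of the same symbol were averaged. Arrays were averaged within an orientation and then across orientations. All tests were run with limma 3.58.1 (R 4.3.3), with default lmFit and eBayes settings and Benjamini-Hochberg adjustment at 0.05 over 21915 features: an intercept for liver (13 strain means) and for B6 against D2 (4 values), strain as a block for sex (17 strains), and an F over strains with sex as a term. The fits were tested on simulated data. Genes were named if they were members of the lists, the 8 most like Apcs by r over 13 strains, or the 10 nearest named neighbours on each side. For a few genes chosen this way no result is reported here. The 3 most opposite genes were added after their values were seen. Replicate numbers of males and females on the B6 and D2 arrays correlated at 0.325 in their deviations, which for 2 groups of 2 does not show that they pair. Alternatives covered centring, scaling, limma settings, single probes, strains, orientation, replicates, runs of consecutively deposited arrays, the replicate block, a term for dye orientation and addition of the enriched arrays.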

Additional observations from a re-analysis of the deposited data

How the results depend on the processing

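The excess of Apcs in liver kept its call under all 12 alternatives run (2.37 to 3.34), and the absence of a call for its sex term between B6 and D2 under all 5. The sex difference, 1.47 with scaled arrays, was 0.83 to 0.99 with 1 strain left out, with 6603 to 8142 features called against 7381 with all. In the 4 strains with liver in channel 1 only it was 0.80, with 0 features called. On 1 value per strain, sex and replicate number, 4789 features were called with the run as a term and 8096 without it. With a replicate block the sex difference was 0.92. The span of Apcs strain means, 3.52, was 3.33 with scaled arrays, 3.01 in females, 4.03 in males and 2.95 to 3.52 with 1 strain left out. Features called between strains, 262, numbered 5589 with 17 strains, 164 and 101 with liver in channel 1 or channel 2 only, and 139 (without BXD15) to 278 with 1 strain left out. The cause was not tested. For B6 against D2, Apcs lost its call with scaled arrays (-3.04, limma, adjusted p = 0.0534, 77 features called), with trended and robust settings (-3.14, 0.442, 0 features called) and without either male value (-3.23 to -3.02 over the 4 values left out in turn, 0 features called without male replicate 1, 2 without male replicate 2, 3 without female replicate 1 and 29 without female replicate 2). Of all features 39 were called, against 25 with replicate 1 only, 274 with a dye term, 9 with a replicate block, where Apcs kept its call (-3.14, 0.0303), and 510 with the enriched arrays added. The enriched arrays alone gave Apcs -1.99, with no test. Signal over background is unknown here, so how it limits low values cannot be stated.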
